A study of Mus musculus with 6 samples.

Results

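The genes described here are 42 genes of macroautophagy, taken by symbol from a deposited table of 54532 genes: the ULK and PI3K kinase complexes that start the process, the proteins that enlarge the membrane, the ATG conjugation machinery, the LC3 and GABARAP proteins, the cargo receptors, the TFEB family of transcription factors and the tether Epg5. All 42 were found, and 41 had enough counts to be tested among 16844 genes. Calcoco2 did not pass the low-count filter.

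RNA came from 6 samples of NIT-1, a mouse insulinoma line labelled as beta cell. In the 3 EV_Tm samples the cells were given hucMSC-EVs, read here as extracellular vesicles of mesenchymal stem cells from human umbilical cord, for 16 h. In the 3 PBS_Tm samples (titled ERS) they were given PBS for the same time. Tm was then added in both groups for 8 h. It is read as tunicamycin, which blocks N-linked glycosylation and stresses the endoplasmic reticulum (ER). The treatment label of the PBS_Tm samples reads as if nothing had been given, whereas the design text puts them in Tm, and the design text was followed. A culture without Tm was not analysed here, so every difference is one between vesicles and PBS in cells that all had Tm. Nothing in the labels tells whether the replicates were separate cultures, and p-values here rest on the spread of these 6 libraries, which may be technical only. The libraries held 28654248 to 32550268 counts. Of 10 beta-cell markers, 8, Ins1, Ins2 and Pdx1 among them, were at or under 3 counts in every library and 7 were at 0, so the labelled cell type was not borne out by its markers. Levels are given as CPM, read counts scaled to library size. The 7 fibroblast and mesenchymal markers, each above 3 counts in at least 1 library, summed to 626 to 638 CPM in PBS_Tm and 698 to 749 CPM in EV_Tm, nearly all of it Vim. Of the 5 that could be tested, 2 were higher in EV_Tm and 2 lower. The 5 acinar and duct markers, 3 of them at 0 throughout, summed to 84.6 to 92.6 and 113 to 116 CPM. The part of these differences in the results below was not tested. In bulk RNA, fewer cells of a kind and less RNA per cell cannot be told apart.

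Macroautophagy encloses cytoplasm in a double membrane, the autophagosome, and delivers it to the lysosome. The ULK1 kinase complex receives signals from mTORC1 and AMPK and activates the class III PI3K complex, whose lipid product recruits WIPI proteins. ATG2 and ATG9 supply lipid to the growing membrane, and a pair of ubiquitin-like conjugation reactions attaches LC3 and GABARAP proteins to it, where receptors such as p62 bring in cargo. In secretory cells autophagy is known to remove ER and damaged proteins, and ATF4 and CHOP, transcription factors of the ER stress response, are known to induce some of these genes.

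The autophagy genes did not move as a block. Of the 41 tested members, 15 were higher in EV_Tm, 17 were lower and 9 did not pass (edgeR quasi-likelihood test, Benjamini-Hochberg adjusted p under 0.05 over all tested genes). That is 78.0% called, against 47.4% of all tested genes, of which 22.6% were higher and 24.7% lower. The members are well expressed, with mean levels of 9.95 to 1143 CPM, and among the 9837 tested genes at or above the lowest of them 64.0% were called, 28.6% higher and 35.4% lower. The groups did not overlap for 33 of the 41, against 54.5% of all tested genes. That share includes genes less expressed than any tested member, and it was not computed for genes of comparable level. The median log2 fold change of the members was 0.01, as over all tested genes (0.01), and the median size of a change was 0.30 against 0.28 for all genes and 0.23 for genes at or above the lowest tested member. The direction differed by role, though counts within a role rest on few genes and were not tested against these shares. LC3 and GABARAP genes and the genes that enlarge the membrane were higher or did not pass. Most conjugation genes and cargo receptors and all called members of the TFEB family were lower.

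**Figure D1:**
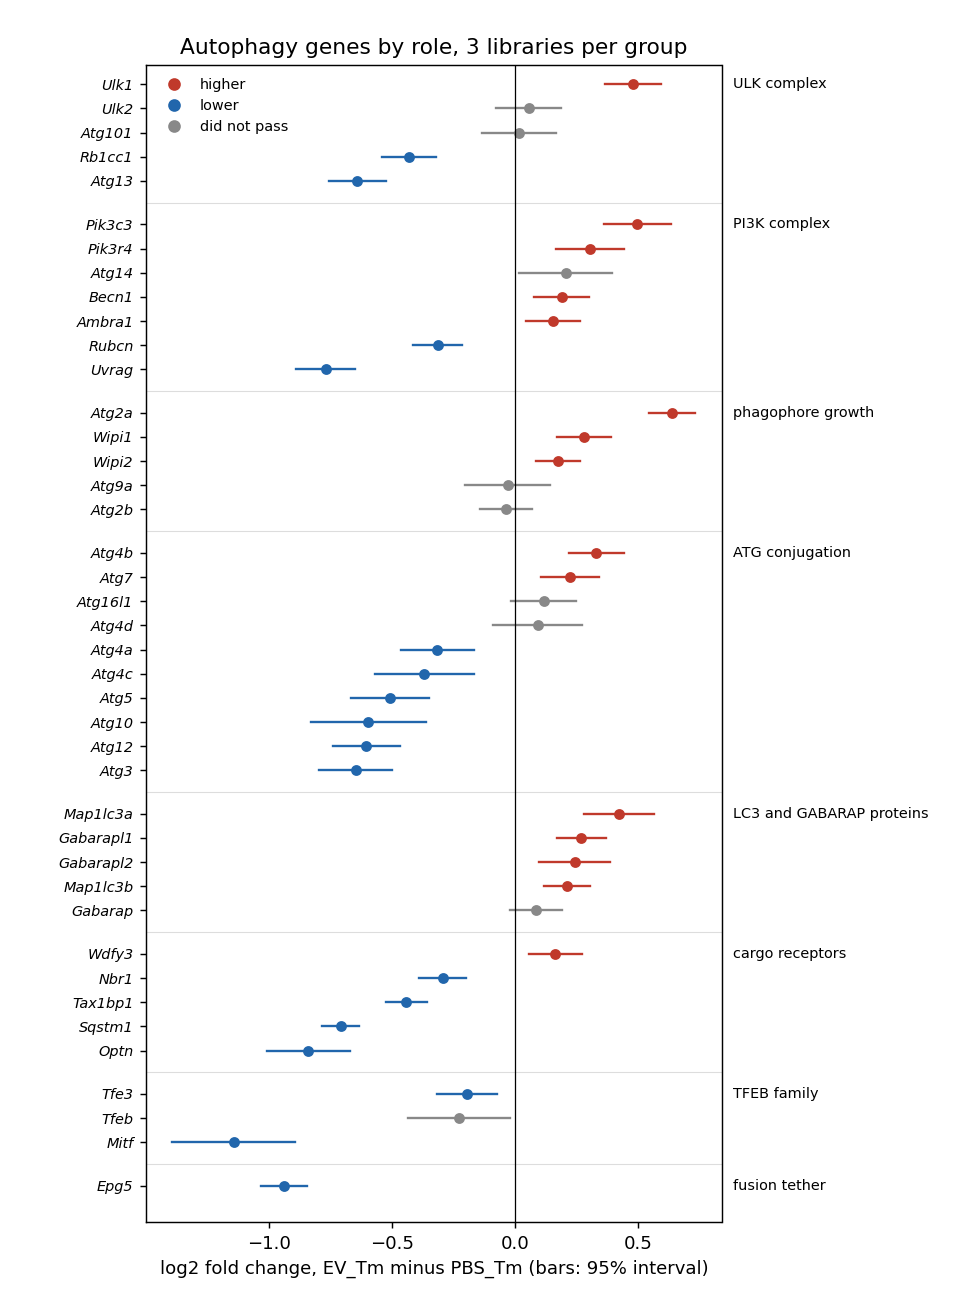
Log2 fold change of the 41 tested members (x axis, EV_Tm minus PBS_Tm) by role, with 95% intervals and 3 libraries per group. Red points are higher (15), blue points lower (17) and grey points did not pass (9), and the red points lie mainly in the PI3K, phagophore and LC3 groups.

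Changes were small. At least 1.5-fold differences were found for 10 of the tested members, of which 9 were lower (Mitf, Epg5, Optn, Uvrag, Sqstm1, Atg3, Atg13, Atg12 and Atg10) and 1 was higher (Atg2a). Over all tested genes, 7.44% were lower and 7.25% higher by that rule, a share that was not matched for level. Of the 41 tested members only Mitf was past 2-fold, a size reached by 5.97% of tested genes. As a share of all counts, the members together made up 0.432% ± 0.008 under PBS and 0.373% ± 0.002 under vesicles (SD, n = 3). Without Sqstm1 these shares were 0.292% ± 0.004 and 0.285% ± 0.001, so most of the difference lay in the counts of Sqstm1.

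In the ULK complex, the kinase and its scaffolds went in different directions. Ulk1 (chromosome 5, 110784488 to 110810097; coordinates of genes are those of the deposited table, read as GRCm38), the kinase, was at 54.0, 49.7 and 50.8 CPM in PBS_Tm and at 70.4, 72.7 and 72.0 CPM in EV_Tm. All 3 EV_Tm libraries lay above all 3 PBS_Tm libraries, a 1.39-fold rise (log2 fold change 0.48 ± 0.05, SE, edgeR adjusted p = 8.36e-08). Atg13 (chromosome 2, 91674618 to 91710576), the subunit that ties the kinase to the complex and is a target of mTORC1, was at 66.3, 66.1 and 64.5 CPM in PBS_Tm and at 42.8, 41.3 and 42.1 CPM in EV_Tm. It fell by 0.64 log2 units (SE 0.06, edgeR adjusted p = 7.05e-10), with no overlap. Rb1cc1, the large scaffold FIP200, was 1.35-fold lower, at 82.3 to 90.3 CPM in PBS_Tm and 61.6 to 66.6 in EV_Tm. Ulk2, the second kinase, and Atg101, which stabilises ATG13, had overlapping groups and log2 fold changes of 0.05 (95% interval -0.08 to 0.19) and 0.01 (-0.13 to 0.16).

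Within the PI3K complex, the core rose and both partners that act later in the pathway fell. Pik3c3 (chromosome 18, 30272747 to 30348126), the lipid kinase VPS34, was at 29.5, 29.4 and 30.3 CPM in PBS_Tm and at 40.1, 43.3 and 42.4 CPM in EV_Tm. The groups lay apart, and the rise was 1.41-fold (0.50 ± 0.07, SE, edgeR adjusted p = 9.56e-07). Pik3r4, its regulatory subunit VPS15, was 1.23-fold higher and Becn1, the core subunit Beclin 1, 1.14-fold higher. Becn1 shares 3104 exon bases with Cntd1 on the other strand, which had 308 counts against 10880. Ambra1, which helps to activate Beclin 1, was 1.11-fold higher with an adjusted p of 0.0198 (edgeR), but did not pass without EV_Tm replicate 1 (adjusted p = 0.104), without PBS_Tm replicate 2 (0.110) and with no low-count filter (0.0510). Atg14, the subunit that directs the complex to autophagosome formation, did not pass (log2 fold change 0.20, 95% interval 0.02 to 0.39, edgeR adjusted p = 0.0696). It passed without PBS_Tm replicate 2 (0.0314), with library size alone as the scale (0.0298) and with the stricter low-count filter (0.0440).

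Uvrag (chromosome 7, 98885021 to 99141141), which takes the place of ATG14 in the form of the complex that acts on endosomes and late autophagosomes, was at 72.7, 74.8 and 67.9 CPM in PBS_Tm and at 43.2, 40.7 and 42.4 CPM in EV_Tm. It was 1.71-fold lower, with every EV_Tm library under every PBS_Tm library (edgeR adjusted p = 5.05e-11). Rubcn, the inhibitor Rubicon that binds the UVRAG complex, was 1.24-fold lower, at 119 to 131 CPM in PBS_Tm and 97.8 to 102 in EV_Tm. Its exons overlap 171 bases of Fyttd1 on the other strand, which had 28780 counts against 21002 for Rubcn and was also lower (log2 fold change -0.20), and whether strand was used in counting is not known here, so the values of overlapping genes are uncertain.

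Among genes that enlarge the membrane, 3 of 5 rose and none fell. For comparison, 28.6% of all tested genes at or above the lowest tested member were higher and 35.4% lower. Atg2a (chromosome 19, 6241668 to 6262335), a lipid transfer protein between ER and the growing membrane, was at 115, 109 and 108 CPM in PBS_Tm and at 166, 179 and 171 CPM in EV_Tm. The 1.55-fold rise was the largest among the tested members (0.64 ± 0.05, SE, edgeR adjusted p = 2.05e-11), and the groups lay apart. Its relative Atg2b was at 84.8 to 96.1 CPM in PBS_Tm and 85.1 to 88.6 in EV_Tm and did not pass (log2 fold change -0.04, 95% interval -0.15 to 0.07). Wipi1 and Wipi2, which bind the lipid made by the PI3K complex, were 1.21-fold and 1.13-fold higher, and Wipi2, the one that recruits ATG16L1, reached 155 to 159 CPM. Atg9a, the lipid scramblase carried in vesicles, had overlapping groups, with means of 21.9 ± 0.8 CPM in PBS_Tm and 21.5 ± 1.6 CPM in EV_Tm (SD, n = 3). Exons of Atg2b and Atg9a overlap genes on the other strand, by 383 bases with Gskip and 46 bases with Ankzf1. Gskip and Ankzf1 had 3638 and 6003 counts against 16507 and 4045 for the members. Ankzf1 was lower in EV_Tm (log2 fold change -0.23, edgeR adjusted p = 0.0122), and Gskip did not pass (0.10, edgeR adjusted p = 0.385).

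**Figure D2:**
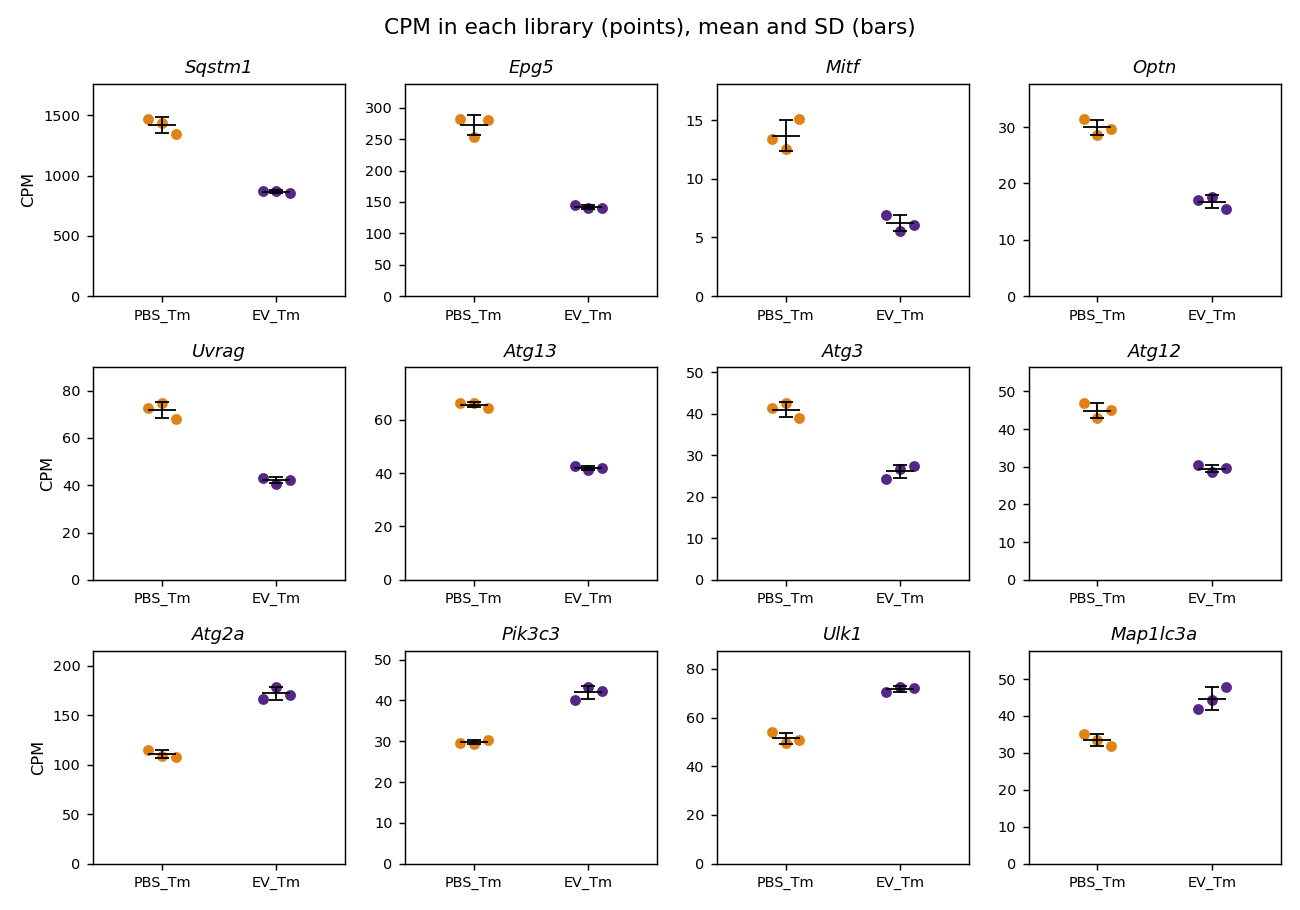
CPM (y axis, from 0) of 12 members in each library, with points for libraries and bars for the mean and SD of 3 per group. The groups lie apart in all 12, with Atg2a, Pik3c3, Ulk1 and Map1lc3a higher in EV_Tm and the other 8 lower.

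The conjugation genes were lower on balance, with 6 of 10 lower and 2 higher. Of all tested genes at or above the lowest tested member, 35.4% were lower and 28.6% higher. Atg3 (chromosome 16, 45158785 to 45188538), the E2-like enzyme that passes LC3 to its lipid, was at 41.3, 42.6 and 39.0 CPM in PBS_Tm and at 24.3, 26.7 and 27.4 CPM in EV_Tm, a fall by 0.65 log2 units (SE 0.07, edgeR adjusted p = 4.48e-08). Atg12, the ubiquitin-like protein of the other reaction, was at 47.0, 42.8 and 45.0 CPM in PBS_Tm and at 30.4, 28.5 and 29.7 CPM in EV_Tm, 1.52-fold lower (edgeR adjusted p = 4.34e-08). Atg5, to which ATG12 is attached, was 1.42-fold lower, at 33.4 to 39.1 CPM in PBS_Tm and 24.3 to 25.4 in EV_Tm. Atg10, the E2-like enzyme that joins them, was 1.51-fold lower from a low level, with 342 to 402 counts in PBS_Tm and 216 to 270 in EV_Tm. The pair and the enzyme that joins it thus all fell, as did the E2-like enzyme for LC3, with no overlap between groups for any of the 4. Atg7, the E1-like enzyme shared by both reactions, went the other way and was 1.17-fold higher, at 51.8 to 54.2 CPM in PBS_Tm and 59.1 to 65.0 in EV_Tm. Atg16l1, which anchors the ATG12-ATG5 conjugate to the membrane, did not pass (log2 fold change 0.12, 95% interval -0.02 to 0.25). With library size alone as the scale it did (adjusted p = 0.0495).

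The ATG4 proteases, which prepare LC3 for conjugation and cut it off again, were split. Atg4b, the protease of broadest use, was 1.26-fold higher, at 54.0, 55.7 and 53.1 CPM in PBS_Tm and at 68.9, 69.2 and 66.5 CPM in EV_Tm (edgeR adjusted p = 1.50e-05). Atg4a, which prefers GABARAP proteins, was 1.25-fold lower and Atg4c 1.29-fold lower, and the groups lay apart for all 3. Atg4d did not pass (log2 fold change 0.09, 95% interval -0.09 to 0.27). Its exons overlap 1405 bases of Kri1 on the other strand, which had nearly as many counts (4067 against 4125). Kri1 was lower in EV_Tm (log2 fold change -0.31, edgeR adjusted p = 0.00329), so the value of Atg4d is uncertain. A copy of Atg4a, Atg4a-ps, held 194 counts against 6967 for Atg4a, so reads may be divided between them and the value is uncertain.

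Of the 42 members, 33 were matched by symbol to RefSeq promoters (GRCm38.p6, 250 bases before to 50 after a start site), with 43 promoters in all. The E-box core CACGTG, bound by the TFEB family and by other factors of its class, was searched on both strands and lay in promoters of 5 of the 33, namely Atg3, Atg5, Atg7, Atg14 and Rubcn. That is 11.6% of member promoters, against 7.15% of all 32851 promoters in the table. TCACGTGA, the centre of the CLEAR motif of TFEB, which contains the E-box core, lay only in that of Atg3 (2.33% against 0.974% of all). TGATGNAAN, a form of the site bound by ATF4 with C/EBP factors, was in none of the 43 and in 3.95% of all promoters. Of the 5 genes with an E-box core, 3 were lower in EV_Tm (Atg3, Atg5 and Rubcn), Atg7 was higher and Atg14 did not pass. A match is only a run of letters in this window, and its absence says nothing of the factors.

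The 250 bases before the start sites of the 3 conjugation genes with an E-box core are shown because these genes act at linked steps, share the motif and went in different directions. They are read 5′ to 3′ on the gene's strand from RefSeq's GRCm38.p6 table, with the motif matches in capitals. They lie at chr16:45158579-45158828 for Atg3, chr10:44268089-44268338 for Atg5 and chr6:114670846-114671095 for Atg7, all on the plus strand. The start sites of Atg3 and Atg7 lie inside the genes as the deposited table bounds them, for Atg7 far inside (gene from 114643097 to 114860614). The second capital run of Atg3 is the CLEAR centre.
Atg3: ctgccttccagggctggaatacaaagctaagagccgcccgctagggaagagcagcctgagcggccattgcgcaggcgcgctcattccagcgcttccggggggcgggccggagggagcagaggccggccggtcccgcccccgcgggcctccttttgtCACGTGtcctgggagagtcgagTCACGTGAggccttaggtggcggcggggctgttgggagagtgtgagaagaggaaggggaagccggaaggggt
Atg5: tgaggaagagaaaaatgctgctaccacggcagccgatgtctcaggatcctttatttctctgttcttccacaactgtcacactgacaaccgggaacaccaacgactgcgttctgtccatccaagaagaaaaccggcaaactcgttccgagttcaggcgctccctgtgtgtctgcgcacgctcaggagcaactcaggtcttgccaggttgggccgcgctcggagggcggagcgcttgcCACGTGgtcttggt
Atg7: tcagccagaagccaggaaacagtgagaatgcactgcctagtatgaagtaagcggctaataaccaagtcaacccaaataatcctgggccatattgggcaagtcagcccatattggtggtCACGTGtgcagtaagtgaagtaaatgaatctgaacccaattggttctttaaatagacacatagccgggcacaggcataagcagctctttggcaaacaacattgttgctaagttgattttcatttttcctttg

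The LC3 and GABARAP genes were slightly higher. Map1lc3a, which encodes LC3A, was at 35.0, 33.5 and 31.7 CPM in PBS_Tm and at 41.9, 44.3 and 47.9 CPM in EV_Tm, a 1.34-fold rise with no overlap (edgeR adjusted p = 1.60e-05). Map1lc3b (LC3B, the usual autophagosome marker) was at 156, 162 and 146 CPM in PBS_Tm and at 176, 178 and 183 CPM in EV_Tm, 1.16-fold higher (edgeR adjusted p = 3.93e-04). Its exons share 58 bases with Zcchc14 on the other strand, whose counts (34488 against 31139) did not differ past the threshold (log2 fold change 0.06, edgeR adjusted p = 0.262). Gabarapl1 and Gabarapl2 were 1.20-fold and 1.18-fold higher. Gabarap, at 123 to 139 CPM in PBS_Tm and 130 to 142 in EV_Tm, did not pass (log2 fold change 0.08, 95% interval -0.02 to 0.19), though it did without PBS_Tm replicate 2 (adjusted p = 0.0414) and with library size alone as the scale (0.0450). So 4 of 5 rose, none past 1.5-fold, against 28.6% higher among all tested genes at or above the lowest tested member.

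Levels of different genes were compared as CPM per kilobase of exon, using the deposited gene length, which equals the summed length of all annotated exons for 40 of 42 members and so understates genes with long rare exons. On that scale Gabarap led its family in PBS_Tm (70.0 ± 4.9 CPM per kb, SD, n = 3), followed by Gabarapl1 (46.9 ± 1.7), Map1lc3a (28.3 ± 1.4), Map1lc3b (20.6 ± 1.1) and Gabarapl2 (13.0 ± 0.7). No neighbours in this order came within their SDs of each other. The order was the same in EV_Tm, with Gabarap taking 39.1% ± 1.7 of the family's per-length level in PBS_Tm and 35.7% ± 1.1 in EV_Tm, and Map1lc3a 15.8% ± 0.5 and 18.2% ± 1.3. Sqstm1 stood above all other members at 423 CPM per kb in PBS_Tm and 258 in EV_Tm.

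Most receptors that carry cargo to LC3 were lower in EV_Tm. These were 4 of the 5 tested, against 35.4% of all tested genes at or above the lowest tested member. Sqstm1 (chromosome 11, 50199366 to 50210827), the receptor p62 for ubiquitinated cargo, was at 1470, 1440 and 1345 CPM in PBS_Tm and at 869, 876 and 857 CPM in EV_Tm. The EV_Tm libraries were tightly grouped and all lay below PBS_Tm, a fall by 0.71 log2 units (SE 0.04, edgeR adjusted p = 2.71e-14). Optn (chromosome 2, 5020642 to 5064051), optineurin, a receptor for damaged mitochondria and bacteria, was at 31.4, 28.7 and 29.7 CPM in PBS_Tm and at 17.1, 17.6 and 15.4 CPM in EV_Tm. It was 1.79-fold lower with no overlap (edgeR adjusted p = 5.76e-09). Tax1bp1, which acts in the clearance of protein aggregates, was 1.36-fold lower, at 272 to 290 CPM in PBS_Tm and 203 to 210 in EV_Tm, and Nbr1, a partner of p62, 1.23-fold lower.

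Wdfy3, the large aggregate adaptor ALFY, was the receptor gene that rose, by 1.12-fold. Its PBS_Tm libraries were spread (206, 189 and 231.0 CPM), and the highest of them nearly reached the lowest of EV_Tm (231.3, 237.4 and 231.8 CPM). The adjusted p was 0.0129 (edgeR), and the call was lost without PBS_Tm replicate 2 (adjusted p = 0.181, log2 fold change 0.08) and without EV_Tm replicate 2 (0.0739). Calcoco2 (NDP52) had 8, 22 and 6 counts in PBS_Tm and 1, 2 and 3 counts in EV_Tm, or at most 0.728 CPM. The EV_Tm values are at or under the 3 counts that a count of 0 allows, and the gene was not tested in the edgeR fit. Where it was let in, it was lower, with no low-count filter (edgeR adjusted p = 0.0194) and in DESeq2 (adjusted p = 0.0360). Its fitted fold change rests on these few counts and is not given. The 5 tested receptors all had groups that lay apart.

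In the TFEB family, which switches on lysosomal and autophagy genes, Mitf showed the largest fold change of the 41 tested members. Mitf (chromosome 6, 97807052 to 98021349) was at 13.4, 12.6 and 15.1 CPM in PBS_Tm and at 6.93, 5.58 and 6.08 CPM in EV_Tm, from 162 to 486 counts per library. The groups were far apart, with a 2.21-fold lower level (-1.14 ± 0.12, SE, edgeR adjusted p = 2.33e-08). Tfe3 was 1.15-fold lower, at 59.3 to 66.2 CPM in PBS_Tm and 51.1 to 56.1 in EV_Tm (edgeR adjusted p = 0.00786), and did not pass without EV_Tm replicate 2 (adjusted p = 0.0602). Tfeb had overlapping groups, at 20.6, 18.6 and 15.5 CPM in PBS_Tm and 15.6, 16.2 and 14.9 CPM in EV_Tm, and did not pass (log2 fold change -0.23, 95% interval -0.44 to -0.02, edgeR adjusted p = 0.0622). Without PBS_Tm replicate 3, the lowest of its group, it did (adjusted p = 0.00566). These are transcript levels, whereas the activity of these factors is set largely by whether they enter the nucleus. Per length, Tfe3 made up 55.3% ± 0.2 of the family in PBS_Tm and 61.0% ± 1.6 in EV_Tm, and Mitf 18.3% ± 2.4 and 10.4% ± 0.8 (SD, n = 3 each).

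Epg5 (chromosome 18, 77938467 to 78035027), a tether that gives autophagosomes their specificity for late endosomes and lysosomes, was at 282, 254 and 281 CPM in PBS_Tm and at 145, 141 and 140 CPM in EV_Tm. Each EV_Tm library was well below each PBS_Tm library, a 1.92-fold lower level (-0.94 ± 0.05, SE, edgeR adjusted p = 1.04e-14). It had the smallest adjusted p of all tested members.

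Related genes were also set against each other within each library, in 5 pairs, which needs no scaling between libraries. The ratio of Ulk1 to Ulk2 per length was 1.13, 1.03 and 0.971 in PBS_Tm and 1.35, 1.53 and 1.34 in EV_Tm. That of Atg2a to Atg2b was 2.10, 2.24 and 2.16 in PBS_Tm and 3.30, 3.53 and 3.51 in EV_Tm, and that of Atg4b to Atg4a rose from 0.422 ± 0.017 to 0.666 ± 0.073 (SD, n = 3 each, exact permutation test). In these 3 pairs and for Wipi1 to Wipi2 (1.15 ± 0.05 and 1.24 ± 0.01) the groups lay apart. The exact two-sided permutation test gave p = 0.1 for each of the 4, the smallest value 3 against 3 samples allow, and 0.125 adjusted over the 5 pairs, so this test could not reach 0.05. The ratio of Tfeb to Tfe3 overlapped between groups (exact permutation p = 1), at 0.428 to 0.508 in PBS_Tm and 0.434 to 0.517 in EV_Tm.

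**Figure D3:**
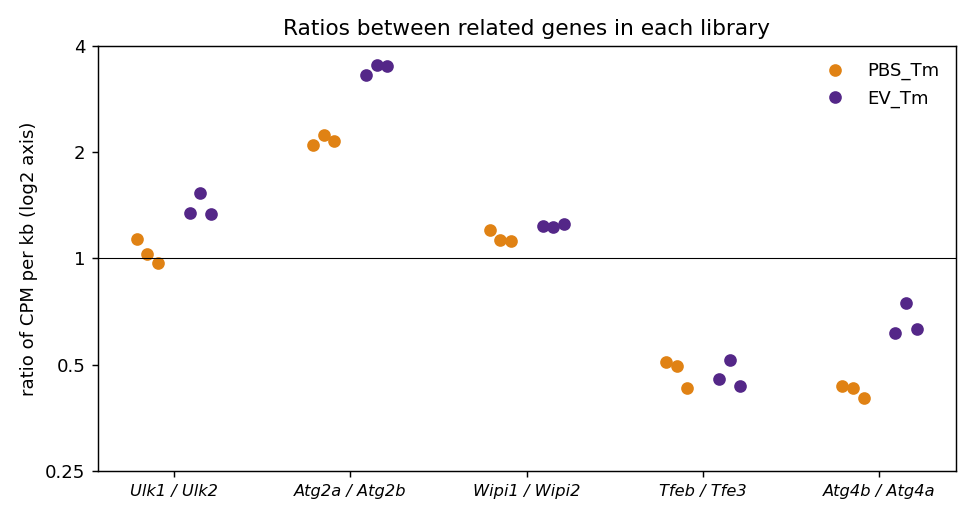
Ratio of CPM per kb between related genes (y axis, log2 scale) in each of the 3 PBS_Tm and 3 EV_Tm libraries. The groups lie apart for 4 of 5 pairs, all but Tfeb to Tfe3.

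Some autophagy genes are known to depend on ATF4 or CHOP when amino acids run short, and both factors were lower in EV_Tm. Atf4 was 1.78-fold lower, at 411 to 423 CPM in PBS_Tm and 230 to 238 in EV_Tm. Ddit3, which encodes CHOP, was 7.49-fold lower, at 296 to 304 and 39.4 to 41.4 CPM, and Trib3, a target of both, 4.44-fold lower. Of 6 members described as ATF4-dependent, Map1lc3b, Becn1 and Gabarapl2 were higher, Atg3 and Atg12 lower, and Atg16l1 did not pass (median log2 fold change 0.15). Of 3 described as needing both factors, Sqstm1 and Nbr1 were lower and Atg7 higher, and of 3 described as CHOP-dependent, Atg5 and Atg10 were lower and Gabarap did not pass. In all, 6 of these 12 were lower, 4 were higher and 2 did not pass. Of all 41 tested members, 17 were lower, 15 higher and 9 did not pass. Among the 9837 tested genes at or above the lowest tested member, 35.4% were lower and 28.6% higher. Whether ATF4 or CHOP had a part in these levels was not tested.

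Outside the 42 members, 23 further genes of autophagosome formation and fusion were looked up, of which 22 were tested. Of these, 6 were higher, 7 lower and 9 did not pass (median log2 fold change -0.05). The share called was 59.1%, against 47.4% of all tested genes and 64.0% of those at or above the lowest tested member. Vmp1, an ER membrane scramblase needed for autophagosome formation, was 1.63-fold higher, at 100, 109 and 107 CPM in PBS_Tm and 170, 180 and 168 CPM in EV_Tm (edgeR adjusted p = 4.14e-12). Its partner Tmem41b was 1.54-fold lower, at 61.1 to 62.8 CPM in PBS_Tm and 37.6 to 43.4 in EV_Tm (edgeR adjusted p = 7.14e-09). Trp53inp1, a stress protein that binds LC3, was 1.43-fold lower and Sh3glb1, which binds the UVRAG form of the PI3K complex, 1.48-fold lower. Vmp1 and Tmem41b thus differed in direction.

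Of 28 genes of the mTORC1 and AMPK kinases and their regulators, 27 were tested, 3 were higher, 8 lower and 16 did not pass (median -0.04). With 40.7% called, this list was below the 47.4% of all tested genes and the 64.0% of those at or above the lowest tested member. Neither Mtor (log2 fold change 0.02 ± 0.05, SE, edgeR adjusted p = 0.767) nor Prkaa1, a catalytic subunit of AMPK (0.03 ± 0.05, edgeR adjusted p = 0.591), passed. Prkaa2, the other catalytic subunit of AMPK and named after its values were seen, was 1.34-fold lower with groups that lay apart (edgeR adjusted p = 2.81e-07). Rptor, the mTORC1 subunit that binds substrates, was 1.41-fold higher. Rragc, a lysosomal GTPase of amino acid sensing, was 1.45-fold lower, and Flcn and Fnip1, whose products act on it, were 1.40-fold and 1.42-fold lower. Fnip2, a gene named after its values were seen, was 1.48-fold lower. For each of these 5 genes the groups lay apart.

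Lysosomal genes with CLEAR sites, the classical targets of TFEB, went both ways. Of 21 tested, 9 were higher, 6 lower and 6 did not pass (median -0.01). The share called was 71.4%, against 47.4% of all tested genes and 64.0% of those at or above the lowest tested member. Gla and Ctsa, which encode lysosomal hydrolases, were 1.45-fold and 1.31-fold higher, while Clcn7, a lysosomal chloride transporter, was 1.47-fold lower and Atp6v1h, a subunit of the proton pump, 1.31-fold lower.

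**Figure D4:**
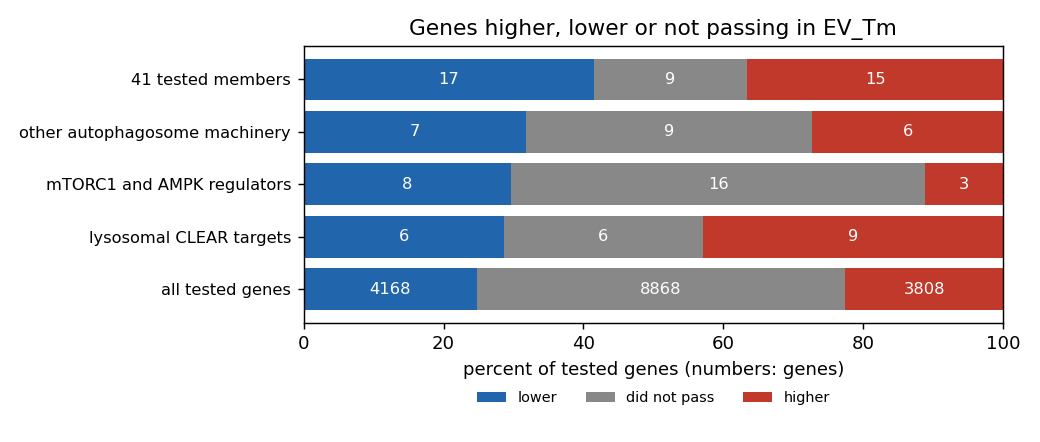
Percent of tested genes (x axis) that were lower (blue), did not pass (grey) or were higher (red) in EV_Tm, for the members, 3 further gene lists and all tested genes, with the number of genes in each bar. Each list holds genes in both directions, and the members have 17 lower and 15 higher.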

How the data were processed

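Bulk RNA-seq counts were analysed from 6 samples in 2 groups of 3, with groups and replicate numbers from the titles. Per the labels' protocols, adaptors were removed and reads aligned with HISAT2 2.2.1. Counting by featureCounts 2.0.6 is named in the submitters' processing notes. What was deposited is 1 table of whole-number counts, a row for each gene and a column for each library. Its other columns, also as deposited, hold the gene's coordinates and its length in bases. The notes name mm39, but start and end equal those of GENCODE M21 (GRCm38) for 98.3% of 54495 shared identifiers and for 40 of 42 members, so coordinates were read as GRCm38. How strand and multi-mapping reads were treated is not given in the sources used here.

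The comparison was fitted over the whole table with edgeR 4.0.16 in R 4.3.3 (TMM factors, filterByExpr, quasi-likelihood F test, two-sided, Benjamini-Hochberg adjustment over 16844 genes). Fold changes are EV_Tm minus PBS_Tm, the SE was obtained by dividing the fold change by the root of F, and CPM use TMM-scaled library sizes (marker sums and the limit of 3 counts, 0.0922 to 0.105 CPM, use plain ones). These limits cover counting error only. Where a symbol had several identifiers, that with most counts was used. Libraries of a group differed by more than sampling noise (mean chi-square per gene 3.59 to 7.22), so all 6 were kept as separate samples. Alternatives were DESeq2 size factors, library size alone, no filter, at least 1 CPM in 3 libraries, the tests of DESeq2 1.42.0 and limma-voom 3.58.1, a block for the replicate number, each library left out in turn, an adjusted p under 0.01 and a fold of at least 1.5. The test was tried on simulated data, but the outcome is not given here and is not used as evidence for any call. The members and lists were chosen with earlier results of these data known. All members are accounted for, and of each other list the text names up to 4 genes with the smallest adjusted p among those that passed with groups apart, plus Atf4, Ddit3 and Trib3. Mtor, Prkaa1, the 5 pairs, overlapping genes and the lists in the closing section were added after the first fit. The genes named in the closing section did not follow this rule.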

Additional observations from a re-analysis of the deposited data

How the results depend on the processing

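Under the alternatives that changed the scale, the filter, the test or the threshold to an adjusted p under 0.01, and with each library left out in turn, between 30 and 35 members passed, against 32 of 41, with Calcoco2 among them where it was tested (no filter and DESeq2). With the replicate number as a block 32 passed, 15 higher and 17 lower. The numbers do not pair the samples (correlations of deviations of same-numbered libraries -0.04, 0.02 and -0.01), and the block changed no member's call. A fold of at least 1.5 left 10 members, 1 higher and 9 lower, and 2 of the 39 other listed genes that passed, 1 higher and 1 lower, by its own construction. Among refitted values of single members, 514 kept direction and call, 6 lost a call, 7 gained one and 6 changed sign. The sign changes were in Atg101, Atg2b and Atg9a, which did not pass under any of them. Log2 fold changes with a library left out ranged from -0.0582 to 0.0557 for Atg101, from -0.0859 to 0.0132 for Atg2b and from -0.0992 to 0.0018 for Atg9a, and with library size alone they were 0.0017 for Atg2b and 0.0087 for Atg9a. Library size alone moved the median of all tested genes from 0.01 to 0.05. The calls that changed, in Ambra1, Wdfy3, Tfe3, Atg14, Gabarap, Tfeb and Atg16l1, are given with each gene, and their cause was not tested. Counts limit Calcoco2, and Mitf and Atg10 rest on the fewest counts of the tested members.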

Other observations

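Genes of selective autophagy outside the members were looked up in the same fit. Of 12 genes of mitophagy and other selective receptors, 10 were tested, 4 were higher, 4 lower and 2 did not pass. The share called was 80%, against 47.4% of all tested genes and 64.0% of those at or above the lowest tested member. Bnip3, a mitochondrial receptor that binds LC3 and is known as a hypoxia target, was at 31.1, 31.2 and 31.8 CPM in PBS_Tm and at 62.6, 59.6 and 63.9 CPM in EV_Tm. This was a 1.98-fold rise with no overlap (edgeR adjusted p = 1.09e-12), a larger rise than that of any tested member. Its relative Bnip3l was 1.29-fold higher, while Usp30, a deubiquitinase that opposes mitophagy, was 1.38-fold lower. Ncoa4, the ferritin receptor, was 1.24-fold lower, Tollip 1.21-fold lower and Pink1, the kinase that marks damaged mitochondria, 1.15-fold lower. Phb2 was 1.14-fold higher with groups that lay apart (edgeR adjusted p = 0.00152). Fkbp8 was 1.09-fold higher with overlapping groups (edgeR adjusted p = 0.0395).

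Of 12 transcription regulators linked to autophagy genes, 11 were tested, 3 were higher, 3 lower and 5 did not pass. The share called was 54.55%, against 47.4% of all tested genes and 64.0% of those at or above the lowest tested member. Srebf2, the sterol regulator, was 1.43-fold higher. Foxo3, a factor known to induce LC3 and ULK genes, did not pass (log2 fold change 0.01 ± 0.04, SE, edgeR adjusted p = 0.806). Nfe2l2, which encodes NRF2, a known inducer of Sqstm1, was 1.12-fold higher in transcript level. Whether NRF2 had a part in the level of Sqstm1 was not tested.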
